A study of Mus musculus with 16 samples.

Results

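Liver RNA of mice given furan was compared with that of mice given only corn oil, in tissue kept in formalin for 18 h. These are 8 of the 16 samples of the series, chosen by their labels: 4 furan samples, numbered 41 to 44, and 4 corn oil controls, numbered 2, 3, 4 and 6. All were female B6C3F1 mice, a hybrid strain, bought at 5 to 6 weeks of age and kept for at least 7 days before dosing. Furan was gavaged at 8 mg/kg body weight in corn oil over 21 days, and livers were removed 4 h after the final dose. RNA came from 1 paraffin section of 10 um per liver and was strongly fragmented, with RNA integrity numbers between 1.3 and 2.4 over the samples used in the series. Every array carried Cy5-labelled liver cDNA of 1 sample against a Cy3-labelled pool of all samples. The other 8 samples differ in having spent 3 weeks in formalin and in being extracted from 2 sections. The labels state 4 biological replicates for each dose group but do not tie a sample number to an animal, so the p-values measure the spread between these samples.

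Furan is a volatile ring compound that cytochrome P450 2E1 of hepatocytes oxidises to a reactive dialdehyde, which binds glutathione and protein amines. Several response systems are known to read such damage: p53 turns on cell cycle arrest and death genes, NRF2 turns on glutathione and redox genes through antioxidant response elements, heat shock factors turn on chaperones, and eIF2alpha kinases act through ATF4. Hepatocytes also make most plasma proteins, including clotting factors, complement and transport proteins.

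The tissue label was checked against hepatocyte markers. All 17 tested probes of 12 marker genes were well above background on all 8 arrays. Values throughout are log2 ratios of the sample over the pool at 1 probe, and a difference is furan minus control on that log2 scale. A ratio to a pool shows how samples differ at a probe and does not rank genes by abundance.

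Promoters are shown first for 4 redox genes and for 1 chaperone gene, because the probes of these genes are described further on and because the element known for their regulator occurs in them. They are RefSeq sequences of build GRCm38.p6, from 250 bases before to 50 bases after the gene start, in the direction of transcription. Capitals mark matches, on either strand, to the antioxidant response element core TGACNNNGC, in Ugdh (chr5:65435793-65436092, minus strand), Srxn1 (chr2:152105274-152105573, plus strand), Txnrd1 (chr10:82858956-82859255, plus strand) and Prdx1 (chr4:116685349-116685648, plus strand).
Ugdh: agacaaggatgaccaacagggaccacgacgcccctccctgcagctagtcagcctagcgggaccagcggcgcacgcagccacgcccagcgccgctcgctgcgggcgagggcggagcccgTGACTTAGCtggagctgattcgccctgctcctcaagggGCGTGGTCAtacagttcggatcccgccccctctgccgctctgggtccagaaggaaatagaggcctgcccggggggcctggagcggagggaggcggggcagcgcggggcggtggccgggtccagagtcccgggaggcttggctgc
Srxn1: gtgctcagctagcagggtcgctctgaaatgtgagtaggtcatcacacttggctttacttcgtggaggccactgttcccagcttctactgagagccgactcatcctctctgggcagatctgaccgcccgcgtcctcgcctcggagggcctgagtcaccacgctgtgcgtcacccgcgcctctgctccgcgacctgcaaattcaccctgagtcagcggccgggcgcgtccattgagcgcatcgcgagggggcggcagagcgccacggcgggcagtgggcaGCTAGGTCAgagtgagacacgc
Txnrd1: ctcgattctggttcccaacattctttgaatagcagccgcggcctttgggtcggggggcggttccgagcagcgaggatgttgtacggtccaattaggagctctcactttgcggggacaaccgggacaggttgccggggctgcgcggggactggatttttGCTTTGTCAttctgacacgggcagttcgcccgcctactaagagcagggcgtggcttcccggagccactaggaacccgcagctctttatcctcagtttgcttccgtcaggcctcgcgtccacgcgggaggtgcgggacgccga
Prdx1: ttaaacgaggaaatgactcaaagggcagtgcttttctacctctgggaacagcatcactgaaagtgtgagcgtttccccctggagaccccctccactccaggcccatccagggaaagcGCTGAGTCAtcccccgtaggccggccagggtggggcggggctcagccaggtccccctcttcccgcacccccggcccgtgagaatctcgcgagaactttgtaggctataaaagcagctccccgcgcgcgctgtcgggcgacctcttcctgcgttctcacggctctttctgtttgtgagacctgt
The core was present in 16 of 41 promoters of the NRF2 redox genes listed here (39%) and in 4071 of all 32851 promoters of that table (12.4%). In Hspe1 (chr1:55087898-55088197, plus strand), which encodes the mitochondrial co-chaperonin and lies head to head with its partner Hspd1, capitals mark 2 overlapping matches to the heat shock element, searched as the triplets GAA, TTC and GAA with 2 bases between neighbours.
Hspe1: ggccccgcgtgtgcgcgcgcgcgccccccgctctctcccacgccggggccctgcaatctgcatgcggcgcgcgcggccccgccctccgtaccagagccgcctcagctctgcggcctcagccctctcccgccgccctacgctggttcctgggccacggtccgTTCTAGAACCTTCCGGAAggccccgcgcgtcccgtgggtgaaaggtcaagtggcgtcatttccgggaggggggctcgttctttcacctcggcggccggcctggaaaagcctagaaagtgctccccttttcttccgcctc
That element was present in 7 of 41 promoters of cytosolic chaperones and related genes (17.1%), against 0.603% of all promoters. Overlapping windows of Dnajb6 and of Hsph1 were each counted, and the windows of Hspd1 and Hspe1 overlap too. Counted by gene, it was present in 5 of 30, against 179 of all 27025 genes with a promoter there. The p53 response element, searched in full length on both strands, was found in 0 of 32 promoters of the p53 targets and in 3 of all 32851 promoters (0.00913%). A match is only a run of letters in this window. The promoters printed were chosen after the probe values were seen. Among the other redox genes, the core also occurred in G6pdx and Nfe2l2, called higher, and in Me1, called in both directions. It occurred too in Mafg, called lower at -0.75 and -0.60, and in Abcc2, Gclm and Pgd, not called. The heat shock element also occurred in Hspd1 and Hsph1, called higher, and in Dnajb6 and Chordc1, not called.

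Furan shifted a large part of the array. Of 29027 probes bright enough to test, 14071 passed an adjusted p of 0.05 by limma (48.5%), 6084 higher with furan (21.0%) and 7987 lower (27.5%). Unadjusted, 16187 probes passed. The groups did not overlap at 11600 probes (40.0%), 5295 higher (18.2%) and 6305 lower (21.7%). Most changes were small: 87 probes rose and 383 fell by 2-fold or more. Among the 16347 tested probes with a RefSeq gene symbol, from 12848 genes, 4398 were higher (26.9%) and 4082 lower (25.0%), with a median difference of 0.01. The probes of intergenic regions differed from this, with 669 higher and 2348 lower of 6980 and a median of -0.16. The split depends on the scaling: centring each array on its median gave 9940 higher and 2581 lower, and the authors' values gave 7764 higher and 6338 lower. Median centring moved the median of the RefSeq probes to 0.22, and list medians below are read against the RefSeq median of the same scaling. List counts below are to be read against the shares of all RefSeq probes, 26.9% higher and 25.0% lower. Controls correlated with each other at a median r of 0.85 across probes, furan samples at 0.86, and controls with furan samples at 0.53. All arrays share the pool in the Cy3 channel. Between 44.3% and 50.1% of probes stood well above background on the control arrays and between 51.9% and 55.2% on the furan arrays, a mean gap of 6.40 percentage points (two-sided exact permutation p = 0.0286, the smallest that 4 against 4 can give). Left out 1 at a time, furan samples 41, 42 and 43 took this p to 0.0571, 0.0857 and 0.0571. The gap was then 6.59, 5.88 and 6.14 percentage points, with the remaining furan arrays still above all control arrays. The part of this signal difference in the results was not tested.

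Separate probes of the same gene often disagreed. Of 2977 genes with 2 or more tested probes, 248 had every probe called higher (8.33%) and 224 every probe called lower (7.52%), while 469 had probes called in opposite directions (15.8%). Some but not all probes were called, in 1 direction, in 1402 genes, and no probe in 634. The differences at a gene's 2 brightest probes correlated at r = 0.12 over the 2977 genes, and 53.3% had the same sign. Where both were called, 533 genes had them in the same direction and 404 in opposite directions. Probes of the same transcript accession correlated at r = 0.13 (2619 genes) and probes of different accessions at 0.04 (358 genes). For the 2 brightest probes of 1 intergenic region the r was 0.46 on the same strand (1052 pairs) and 0.36 on opposite strands (430 pairs). These correlations are over probe pairs measured on the same arrays against the same pool, and are given as descriptions. The 3-week samples gave r = 0.18 for the same 2 brightest probes.

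The noise between repeated spots was measured as well. The 234 tested probes that are printed 10 times had a median SD of 0.118 among the single spots of 1 array. The averages of these spots had a median SD of 0.0907 between control arrays and 0.0829 between furan arrays. Single spots and averages are unlike measures, so these SDs do not rank the sources of noise. Over all tested probes the median SD within groups was 0.157. Of all tested probes, 81.9% had the same sign on both slides, and the furan differences of slide 1 and slide 2 correlated at r = 0.82 across probes. All called probes had the same sign on both, but calls were made over both slides, which favours that. In the 75 genes whose brightest probe differed by at least 1, that probe's median size was 1.13, and the next brightest probe had a median of 0.02 in the same direction.

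**Figure D1:**
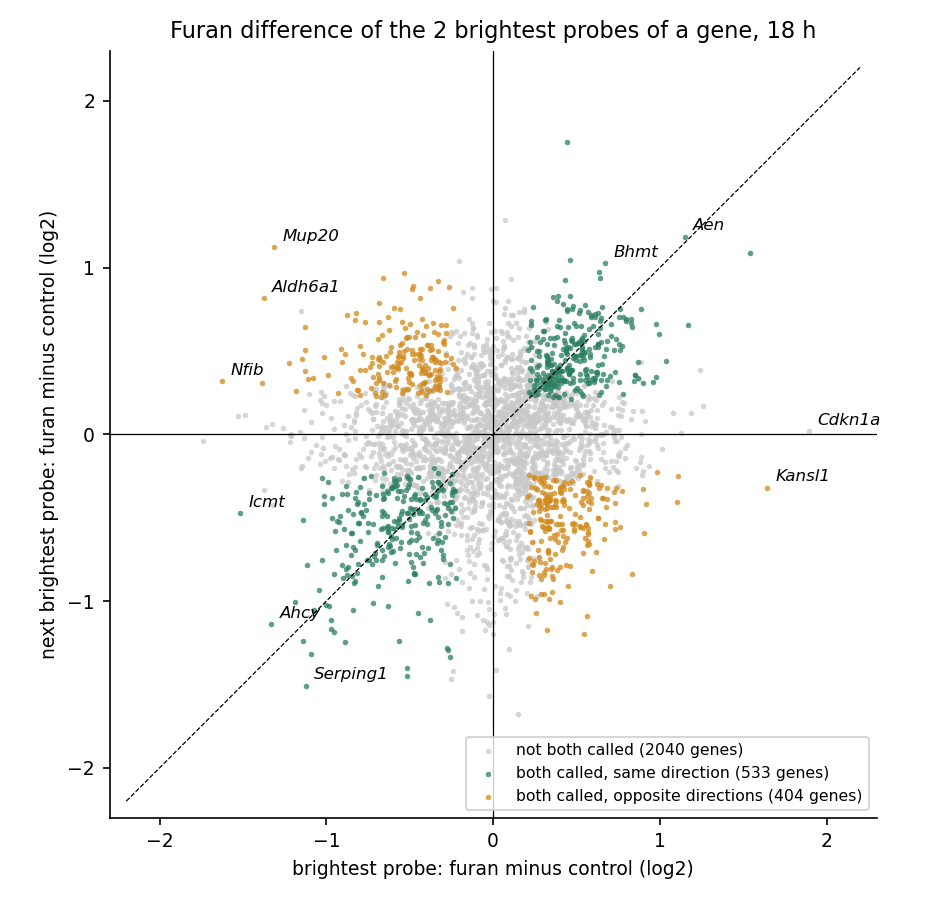
Furan minus control (log2) at the brightest tested probe of a gene (x axis) against that at the next brightest (y axis), 1 point per gene for 2977 genes. The points form a broad cloud with r = 0.12, and 404 genes with both probes called lie in the quadrants of opposite sign.

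Among genes whose probes all rose, the 8 chosen by the largest value of their weakest probe were Aen, Arnt, Bhmt, Enho, Ganab, Pdgfa, Pef1 and Tfcp2l1. Their differences were chosen for size and are a description. Aen, a p53-induced nuclease, rose by 1.15 and 1.19 at its probes, and Bhmt, which remethylates homocysteine with betaine, by 0.67, 1.02 and 1.54. Enho, which encodes the secreted peptide adropin, rose by 0.80 and 0.68. Arnt, the partner of the aryl hydrocarbon receptor, rose by 0.82 and 0.67, the latter at a probe above background on 2 of 4 control arrays, and Ganab, a glucosidase that trims new glycoproteins, by 0.80 and 0.69. Pdgfa, a growth factor, rose by 0.75 and 0.70, Pef1, a calcium-binding protein, by 0.89 and 0.75, and Tfcp2l1, a transcription factor, by 0.76 and 0.75.

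The 8 genes chosen in the same way among those whose probes all fell were Ahcy, F7, Fgfr2, H2-K2, Mprip, Serping1, Srrm2 and Ugt3a2. Ahcy, which hydrolyses S-adenosylhomocysteine, differed by -1.33 and -1.14, so this methionine-cycle gene and Bhmt moved in opposite directions. Serping1, the C1 inhibitor of complement, differed by -1.12 and -1.51, and F7, coagulation factor VII, by -0.98 and -1.03. Fgfr2, a growth factor receptor, differed by -1.19 and -1.005, and Srrm2, a splicing protein, by -1.07 and -1.05. Ugt3a2, a glycosyltransferase, differed by -1.09 and -1.32, and Mprip, a myosin phosphatase partner, by -0.97 and -1.17. H2-K2 differed by -1.14 and -1.24, but its probes may also read H2-K1 and other close relatives.

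The 5 genes with the widest gap between a higher and a lower probe were Kansl1, Mup20, Arhgdia, Aldh6a1 and Icmt. Kansl1, a subunit of a histone acetyltransferase complex, measured -1.28, -1.47, -1.14 and -1.09 in controls and 0.36, 0.25, 0.47 and 0.52 with furan at its brightest probe, a difference of 1.64. Its other probe measured 0.38, 0.22, 0.82 and 0.40 in controls and 0.21, 0.23, -0.05 and 0.15 with furan. The groups were far apart at the first probe and overlapped at the second, where the difference of -0.32 had a limma adjusted p of 0.0485. That second call was lost when any 1 array other than control 3 was left out, at adjusted p between 0.0599 and 0.145. Icmt, a carboxyl methyltransferase of prenylated proteins, differed by -1.52, -0.47 and 0.43 over 3 probes. Arhgdia differed by 0.50, 0.12 and -1.51, and the middle value was not called. Aldh6a1, a dehydrogenase of valine breakdown, differed by -1.38 and 0.82. Mup20, a major urinary protein, differed by -1.31 and 1.12, and its many close relatives could share either probe.

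Gapdh, the glycolytic enzyme often taken as a constant reference, had 7 tested probes. Its brightest probe measured 1.05, 1.15, 1.18 and 1.29 in controls and 0.39, 0.21, -0.0006 and 0.08 with furan, with no overlap. All 7 were called, 5 lower with differences of -1.0, -1.02, -0.64, -0.81 and -0.90 and 2 higher with 0.63 and 0.54. With median centring 2 of the 5 lower calls were lost and no sign turned. Nfib, a transcription factor of the nuclear factor I family, had 5 tested probes with differences of -1.62, 0.32, 0.07, -0.72 and 0.11, of which 2 were called lower and 1 higher. Its brightest probe measured 0.84, 0.40, 0.78 and 0.87 in controls and -1.19, -0.94, -0.82 and -0.65 with furan. Over the 4 genes of that family, 1 of 11 tested probes was higher and 5 were lower, with a median of -0.14. Nfia differed by -0.98 at 1 probe and by -0.14, not called, at the other, and Nfix by -0.39 at its only tested probe. Nfic had 1 probe called, at -0.89, and 2 not called, at 0.22 and -0.14.

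**Figure D2:**
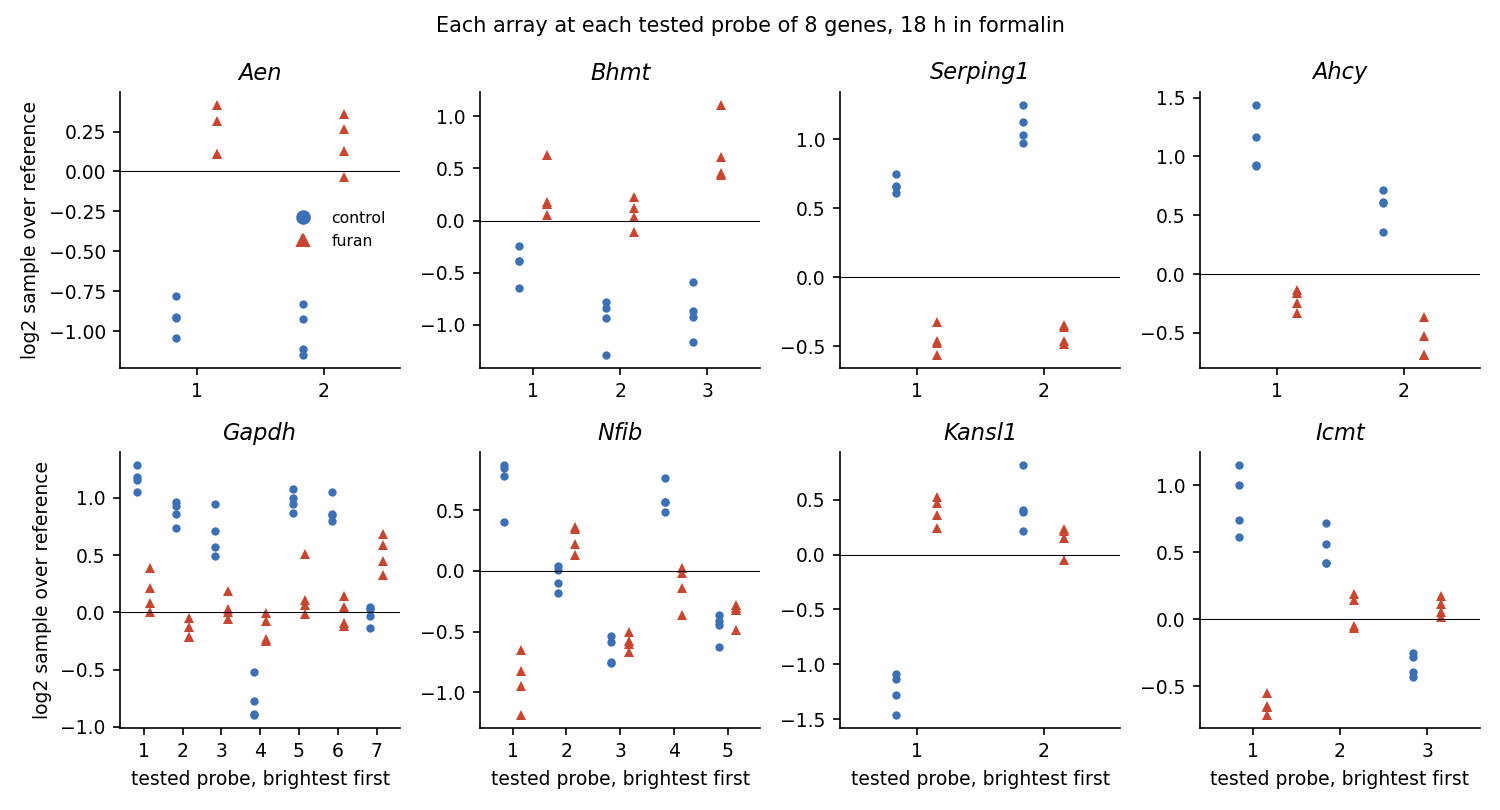
Log2 of sample over reference (y axis) on each array at each tested probe, ordered from brightest (x axis), for 8 genes, with circles for the 4 controls and triangles for the 4 furan samples. Aen, Bhmt, Serping1 and Ahcy keep 1 direction at all probes, while Gapdh, Nfib, Kansl1 and Icmt hold probes of both signs.

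The p53 targets had the highest median of the 44 lists. Of 31 tested probes from 28 genes, 19 were higher (against 26.9% of RefSeq probes) and 4 lower, with a median difference of 0.55 against 0.01 for RefSeq probes. Taken array by array, their median lay between -0.43 and -0.24 on control arrays and between 0.21 and 0.30 on furan arrays. By role, cell cycle arrest genes had 7 of 9 probes higher and none lower, and apoptosis and Akt-related genes 9 higher and 2 lower of 14. DNA repair targets had 1 higher and 2 lower of 4. Probes bright enough only in the furan group tend to be higher by the filter itself. Among the 21 p53 target probes above background on all 8 arrays, 12 were higher and 4 lower, with a median of 0.64.

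Phlda3, a p53-induced inhibitor of Akt, measured -1.84, -1.96, -1.86 and -2.06 in controls and -0.18, 0.03, 0.28 and 0.25 with furan. The groups lay far apart. The difference was 2.02 (SE 0.11, n = 4 per group), 4.07-fold, with a limma adjusted p of 3.87e-06. Cdkn1a, the p21 inhibitor of cyclin-dependent kinases, measured -1.05, -0.88, -0.97 and -1.19 in controls and 1.09, 0.79, 0.84 and 0.74 with furan at its brighter probe, a 3.71-fold rise (adjusted p = 3.87e-06 by limma). The groups did not overlap there. Its second probe, annotated to another transcript accession, differed by 0.02 (adjusted p = 0.876) and was well above background on only 2 of 4 control arrays. Mdm2, the ubiquitin ligase that limits p53, measured -0.35, -0.68, -0.62 and -0.47 in controls and 0.28, 0.34, 0.30 and 0.37 with furan, a rise of 0.85. Aen measured -0.78, -1.04, -0.91 and -0.92 in controls and 0.11, 0.11, 0.31 and 0.42 with furan at its brighter probe.

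Immediate early genes, which answer growth and stress signals within minutes to hours, had 12 probes higher and 2 lower of 21, with a median of 0.35. Only 11 of these probes were above background on all 8 arrays, with 7 higher, 2 lower and a median of 0.52. Jun, an AP-1 subunit, measured -1.02, -1.20, -1.10 and -0.999 in controls and 0.81, 0.25, 0.38 and 0.60 with furan, a 3.01-fold rise with no overlap (adjusted p = 1.35e-05 by limma). Fosl2, another AP-1 subunit, rose by 0.52 and 0.74 at its probes, with 3 of 4 control arrays above background at the latter. Dusp6, a phosphatase that inactivates ERK, rose by 1.53. In the integrated stress response list 13 probes were higher and 4 lower of 25, with a median of 0.32. Ddit4, a stress-induced inhibitor of mTORC1, rose by 0.99 and Cebpb by 0.91. Atf4, the central factor of that response, gave 0.73 at its brighter probe and -0.52 at the other, both called.

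Tubulins had 10 probes higher and 2 lower of 19, with a median of 0.36. Tubb2a measured -1.52, -1.70, -1.43 and -1.64 in controls and 0.38, 0.58, 0.47 and 0.85 with furan. All furan samples stood above all controls by more than the range of either group. The difference of 2.14 (SE 0.11), 4.42-fold, had an adjusted p of 3.87e-06 by limma. Tubb6 rose by 1.16 and Tuba1c by 0.88.

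DNA replication genes had 15 probes higher and 2 lower of 27, with a median of 0.32, and mitosis genes 8 higher and 2 lower of 18, with a median of 0.23. Many of these probes were bright enough only in the furan group, and such probes had to differ, so the counts support nothing by themselves. Among probes above background on all 8 arrays, DNA replication kept 17, of which 7 were higher and 3 lower with a median of 0.16, and mitosis kept 6, of which 2 were higher and 2 lower with a median of -0.014. On slide 1 alone mitosis had none higher and 3 lower. Mcm2 and Mcm6, subunits of the replicative helicase, rose by 0.72, with 2 of 4 control arrays above background, and by 0.69, and Fen1, which trims Okazaki fragments, by 0.71. Cdk1, the mitotic kinase, was not well above background on any control array at either probe and was above it on all furan arrays, so the sizes of its differences, 0.68 and 0.56, rest on control signals that were not well measured. Ccnb1, its cyclin, differed by -0.56 at its brightest probe and by 0.53 at the next, which was not well above background on any control array, both called, and by 0.20 at the third, not called. The call at 0.53 was lost without furan sample 43 (0.45, adjusted p = 0.0603) or 44 (0.47, adjusted p = 0.0566). Mki67, the proliferation marker, differed by 0.20 with overlapping groups (adjusted p = 0.112 by limma).

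Replication-dependent histones had 6 probes higher and 13 lower of 40, with a median of -0.13. H1f2, a linker histone, rose by 1.13, and both probes of H4c12 differed by -0.71. Histone genes are near-identical copies, so a probe may read several of them.

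NRF2 redox genes had 20 probes higher and 8 lower of 44, with a median of 0.23. By role, quinone, carbonyl, heme and iron genes had 8 higher and 1 lower of 15 with a median of 0.52, glutathione supply 3 higher and 1 lower of 5, thioredoxin genes 4 higher and 1 lower of 8, and NADPH genes 3 higher and 2 lower of 8. The regulators themselves had 1 higher and 3 lower of 6. Ugdh, which makes UDP-glucuronate and whose promoter with 2 cores is printed above, measured -1.23, -1.21, -1.03 and -1.35 in controls and 0.69, 0.13, 0.52 and 0.42 with furan. The groups did not overlap, with a 3.12-fold rise (adjusted p = 1.21e-05 by limma). Srxn1, the sulfiredoxin that repairs peroxiredoxins, measured -0.99, -0.72, -0.68 and -1.03 in controls and 0.35, -0.14, 0.04 and 0.05 with furan, a rise of 0.93. Txnrd1, thioredoxin reductase, measured -0.54, -0.63, -0.45 and -0.46 in controls and 0.49, 0.31, 0.34 and 0.41 with furan, a rise of 0.91. Both separated the groups fully.

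Prdx1, the peroxiredoxin whose promoter is also printed, gave opposite calls: -0.56 at its brighter probe (adjusted p = 0.000259) and 0.49 at the other (adjusted p = 0.00275), both by limma. Ephx1, microsomal epoxide hydrolase, rose by 1.26 at 1 probe and differed by 0.17, not called, at the other. Gclc, the catalytic subunit for glutathione synthesis, rose by 0.88, Nqo1, a quinone reductase, by 0.68, and Gsr, glutathione reductase, by 0.63 and 0.41 at its probes. Hmox1, heme oxygenase 1, measured -0.55, -0.54, -0.39 and -0.60 in controls and 1.45, 0.08, 0.21 and -0.28 with furan at its brighter probe. Furan sample 41 stood far above the other 3 at this probe, and its difference of 0.89 (SE 0.26) had an adjusted p of 0.0151. Without that sample the difference was 0.55 (adjusted p = 0.0051 by limma). Without control 3 the difference was 0.79 and the call was lost (adjusted p = 0.0554 by limma). The second Hmox1 probe was also highest in sample 41, at 0.56 against -0.85, -0.33 and -0.86 in the others, and was not called (adjusted p = 0.172).

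Cytosolic chaperones and their mitochondrial relatives had 21 probes higher and 8 lower of 50, with a median of 0.17. Among the 43 probes of this list above background on all 8 arrays, 18 were higher and 8 lower, with a median of 0.17. The Hsp110, Hsp90 and Hsp70 group had 9 of 15 higher and none lower. Some of these 9 were bright enough only in the furan group, and such probes tend to be higher by the filter itself. Hspe1, whose promoter is printed above, rose at all 3 probes by 0.53, 0.51 and 0.71. Its brightest probe measured -0.35, -0.29, -0.34 and -0.22 in controls and 0.26, 0.03, 0.36 and 0.28 with furan. Its partner Hspd1 rose by 0.48, and Hsph1, an Hsp110, by 0.41 at its brighter probe. Its other probe, at 0.38, and Hspa4l, another Hsp110, at 1.01, were called higher but were not well above background on any control array, so the sizes are uncertain. Chaperones of the endoplasmic reticulum had 6 probes higher and 5 lower of 21 (28.6% and 23.8%), close to the shares of all RefSeq probes (26.9% and 25.0%). Calr, calreticulin, rose by 0.77 and Syvn1, a ubiquitin ligase of that compartment, by 0.81, whereas P4hb, protein disulfide isomerase, measured 0.37, 0.09, 0.41 and 0.20 in controls and -0.92, -0.91, -1.07 and -0.95 with furan.

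Large housekeeping complexes had called probes in both directions. Over all RefSeq probes 26.9% were higher and 25.0% lower. Cytosolic ribosomal proteins had 58 probes higher and 34 lower of 167 (34.7% and 20.4%), with a median of 0.11. Of their 51 genes with several tested probes, 6 had all probes higher, 1 all lower, 10 had opposite calls and 13 none. Rpl36 rose at its 3 probes by 0.44, 0.48 and 0.52, and Rpl9 by 0.48 and 0.54, with processed pseudogenes that could share these probes. Mitochondrial ribosomal proteins had 40 higher and 17 lower of 95, among them Mrpl43 with rises of 0.55 and 0.49 and Mrps2 with differences of -0.81 and -0.53. Oxidative phosphorylation genes had 37 higher and 17 lower of 111 (33.3% and 15.3%). On slide 1 alone they had 13 higher and 14 lower, and on slide 2 alone 10 higher and 16 lower. Their median difference was 0.15 over both slides, 0.14 on slide 1 and 0.12 on slide 2. Ndufb4, of complex I, rose by 0.60 and 0.65, and Cyc1, cytochrome c1, differed by -1.01. The proteasome had 23 higher and 16 lower of 55. It had 9 higher and 10 lower on slide 1 alone and 7 higher and 12 lower on slide 2 alone. Its median was 0.12 over both slides, 0.14 on slide 1 and 0.13 on slide 2. Psmd11 differed by -0.98 and Psmd5, an assembly chaperone, by -0.82.

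**Figure D3:**
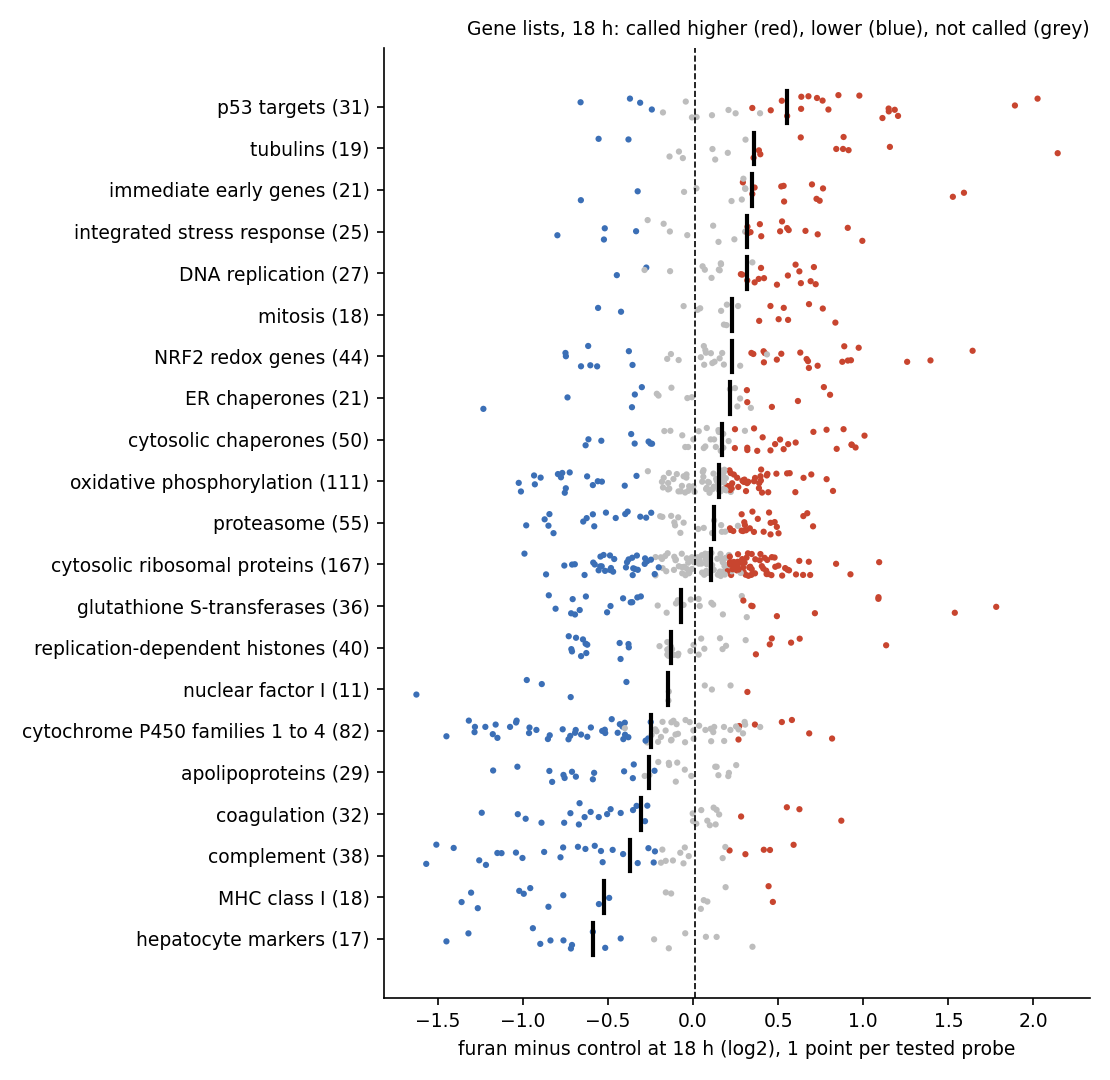
Furan minus control (log2, x axis) for each tested probe of each list (y axis, with the number of tested probes), coloured by whether limma called it higher or lower or not at all. Black bars are list medians and the dashed line is the median of all RefSeq probes. The p53 targets have the highest median, 0.55, and hepatocyte markers the lowest, -0.59.

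Hepatocyte markers and secreted hepatocyte products had more probes called lower than higher, a split that depends on the scaling. Of the 17 hepatocyte marker probes, 11 were lower (against 25.0% of RefSeq probes) and none higher, with a median of -0.59. With median centring 5 were higher and 4 lower. Their median was 0.38 to 0.48 on control arrays and -0.03 to 0.10 on furan arrays. In bulk tissue, fewer cells of a type and less RNA per cell cannot be told apart. Cps1, the mitochondrial urea cycle enzyme that makes carbamoyl phosphate, measured 0.58, 0.30, 0.57 and 0.72 in controls and -0.85, -0.73, -0.79 and -0.73 with furan, a difference of -1.32 with no overlap. Ttr, transthyretin, differed by -0.90 and Alb, albumin, by -0.72.

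Cytochrome P450 families 1 to 4 had 38 probes lower and 7 higher of 82, with a median of -0.25, and 20 lower and 31 higher with median centring. Cyp2e1, the enzyme that activates furan, measured 1.15, 1.06, 1.23 and 1.37 in controls and -0.20, -0.12, -0.40 and -0.27 with furan at its second probe. At its brightest probe it measured 0.92, 0.75, 0.86 and 0.95 in controls and 0.26, 0.53, 0.21 and 0.41 with furan. Neither probe had overlapping groups, with differences of -1.45 (adjusted p = 1.04e-05) and -0.52 (adjusted p = 0.00153 by limma). The latter difference became 0.02 with median centring. Cyp2c37 differed by -0.85 and -0.72. Beyond these families, Cyp46a1, a cholesterol 24-hydroxylase, measured 0.98, 1.03, 1.43 and 1.31 in controls and -0.81, -1.16, -1.21 and -0.99 with furan, a difference of -2.23. Cyp8b1, which directs bile acids toward cholate, differed by -1.09 and Cyp17a1, a steroid hydroxylase, by -1.04. Cyp7a1, the cholesterol 7-alpha-hydroxylase, differed by -0.38 with overlapping groups (adjusted p = 0.24 by limma). These genes do not stand for their lists. P450 families 5 and up had 2 probes higher and 4 lower of 9, with differences up to 1.06. In the bile acid list, synthesis genes had 6 higher and 4 lower of 15, with a median of 0.13. The whole bile acid list, with transporters, had 8 higher and 7 lower of 27, with a median of -0.056.

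Complement had 23 probes lower and 5 higher of 38, with a median of -0.37. Components had 16 lower and 4 higher of 28, and inhibitors 7 lower and 1 higher of 10. C1rb, a protease of the C1 complex, measured 0.95, 1.02, 1.06 and 0.93 in controls and -0.34, -0.36, -0.56 and -0.40 with furan, a 2.65-fold fall. Serping1 measured 0.66, 0.61, 0.74 and 0.66 in controls and -0.46, -0.32, -0.56 and -0.48 with furan at its brighter probe. Both genes had narrow groups that did not overlap. Coagulation factors had 14 lower and 3 higher of 21, while their inhibitors had 4 lower and 1 higher of 11. Hrg, a histidine-rich plasma glycoprotein, differed by -1.24. Apolipoproteins had 14 of 29 probes lower and none higher, with Apoe at -0.84 and Apoc4 at -0.83. With median centring the counts turned, to 15 higher and 10 lower for complement, 14 higher and 5 lower for coagulation and 11 higher and 4 lower for apolipoproteins, with list medians of 0.066, 0.14 and 0.092 against 0.22 for RefSeq probes.

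MHC class I genes, which present peptides on all nucleated cells, had 10 probes lower and 2 higher of 18, with a median of -0.52. The median over these probes was 0.43 to 0.76 on control arrays and -0.17 to 0.10 on furan arrays. H2-T23 measured 0.83, 1.01, 1.13 and 1.09 in controls and -0.09, -0.14, -0.37 and -0.40 with furan, and H2-Q7 differed by -1.02. B2m, the shared light chain, differed by -0.99. H2-K1 differed by -1.36 at 1 probe and by 0.05, not called, at the other. These genes are close copies and their probes may cross-read.

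Glutathione S-transferases had 9 probes higher and 14 lower of 36 (25% and 38.9%), against 26.9% and 25.0% of all RefSeq probes. Gm3776, an alpha-class transferase with near-identical relatives, measured -1.68, -1.83, -1.64 and -1.93 in controls and 0.15, -0.72, 0.24 and 0.38 with furan, a rise of 1.78. Furan sample 42 was the lowest of its group and still above all controls. Gstm4, of the mu class, differed by -0.67 and -0.69. Among glucuronosyl- and sulfotransferases, 10 were higher and 10 lower of 29, and Ugt1a10, which shares exons with other Ugt1a genes, differed by -0.90 and -0.86.

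**Figure D4:**
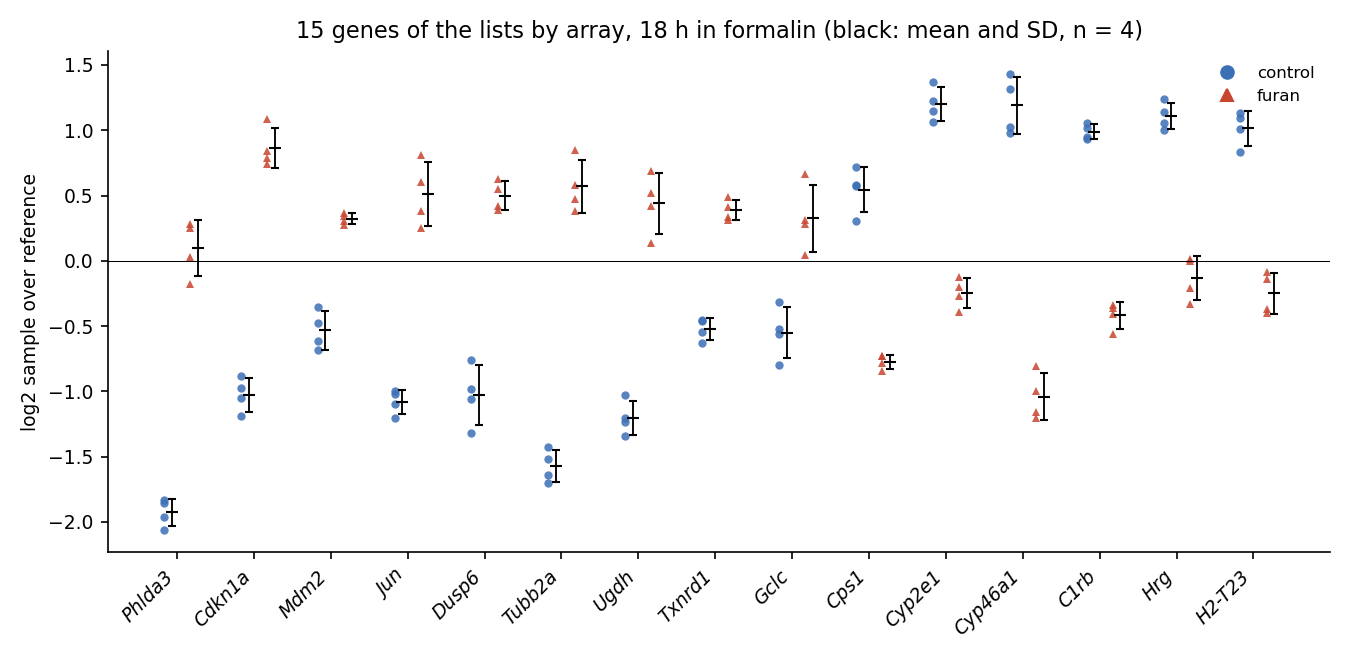
Log2 of sample over reference (y axis) on each array for 15 genes of the lists (x axis), with circles for the 4 controls and triangles for the 4 furan samples, and black marks for the mean and SD (n = 4). The genes from Phlda3 to Gclc lie higher with furan, the genes from Cps1 to H2-T23 lie lower, and the groups do not overlap in any of the 15.

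The alternative scalings were no background subtraction, median centring, the Agilent log ratio and the authors' values. Under each of them the lists just described kept their side of the RefSeq median, with exceptions. The lists of bile acid genes, glutathione S-transferases and glucuronosyl- and sulfotransferases each changed side with median centring. Of the 160 called probes of genes named in the text, median centring turned the sign of 2, the second probe of Atf4 and the brightest of Cyp2e1, and ended the call of 15. These 15 were both probes of H4c12 and Mrps2, single probes of Cyp2c37, Gstm4, Icmt and Prdx1, 2 of Gapdh, and the probes of Alb, Apoc4, Nfix, Nr1d1 and Per3.

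Markers of other cell types moved as well. Erythroid probes had 4 of 9 lower and none higher, with Hba-a1 at -1.01 and Hbb-bs at -1.06, the adult globin chains. The erythroid median of furan sample 42 was 0.19, inside the control range of 0.07 to 0.26. Furan samples 41, 43 and 44 stood at -0.17, -0.30 and -0.26. Macrophage probes had 8 lower and 3 higher of 18, with a median of -0.23, and this list changed side with median centring. Control 4 alone stood high in it, with a median of 0.47 over the probes, while controls 2, 3 and 6 stood at -0.22, -0.23 and -0.17, among furan arrays at -0.27 to -0.12. Without control 4 the list had 7 lower and 6 higher, with a median of -0.046. C1qa and C1qb, subunits of C1q, differed by -1.04 and -1.26, and Mmp12, an elastase of activated macrophages, rose by 1.1. Endothelial probes had 6 lower and 2 higher of 13 (3 lower and 6 higher with median centring), with Eng at -0.89 and Fcgr2b, a receptor of sinusoidal endothelium, at -1.24. Stellate and fibrosis probes had 6 lower and 4 higher of 15, with Tgfb1 at -0.54, and this list too changed side with median centring. None of 3 tested neutrophil probes was called. Biliary and fetal probes had 4 higher and 2 lower of 8, changing side with median centring. Among the 4 above background on all 8 arrays, 3 were higher and 1 lower. Afp, the fetal albumin relative, rose by 0.85, and the defining duct markers Krt19, Epcam and Sox9 were too dim to test. The part of these cell types in the other lists was not tested.

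Whether the furan difference changed between 18 h and 3 weeks in formalin was tested directly, with the 3-week control arrays 2.1 and 2.2 averaged as 1 sample. Of the same 29027 probes, 3833 had a furan difference at 18 h unlike that at 3 weeks (13.2%), 1470 more positive and 2363 more negative at 18 h, and 8415 passed unadjusted. The authors' values turned this split, with 5039 called, 2826 more positive and 2213 more negative. In the fit of all samples, 1264 probes were called at 3 weeks (4.35%) and 11126 at 18 h. The tested probes were chosen for brightness on the 18 h arrays only, so these counts are not on an equal footing. Across probes the differences at both times correlated at r = 0.31, with the pool as their common reference. Time in formalin, the number of sections and the share of probes above background, 32.3% to 41.4% on the 3-week arrays, changed together and cannot be told apart.

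Most genes named here were chosen by their 18 h values, which favours larger differences at 18 h than at 3 weeks. Tubb2a differed most between the times among the genes named here: 2.14 at 18 h and -0.07 at 3 weeks (difference 2.21, SE 0.16, adjusted p = 4.79e-06 by limma). Cdkn1a rose by 1.89 at 18 h and 0.78 at 3 weeks (adjusted p of the difference 0.000904). Cyp46a1 differed by -2.23 and -1.002, and Ttr by -0.90 and -0.02, both with a called difference between times. P4hb, at -1.23 and 0.01, and the brightest probes of Nfib, at -1.62 and -0.09, and of Kansl1, at 1.64 and 0.17, also differed between times. Of the 7 Gapdh probes, 4 did. The difference between times was not called for Phlda3 at 2.02 and 1.64 (adjusted p = 0.129), for the brighter probe of Aen at 1.15 and 0.88, or for Jun at 1.59 and 1.05 (adjusted p = 0.0513). Nor was it called for Gm3776 at 1.78 and 1.96, Afp at 0.85 and 1.39 or Mmp12 at 1.1 and 1.42. At Cyp2e1 the second probe differed by -1.45 and -0.67 and the times differed, while the brightest probe, at -0.52 and -0.79, showed no called difference (adjusted p = 0.248).

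**Figure D5:**
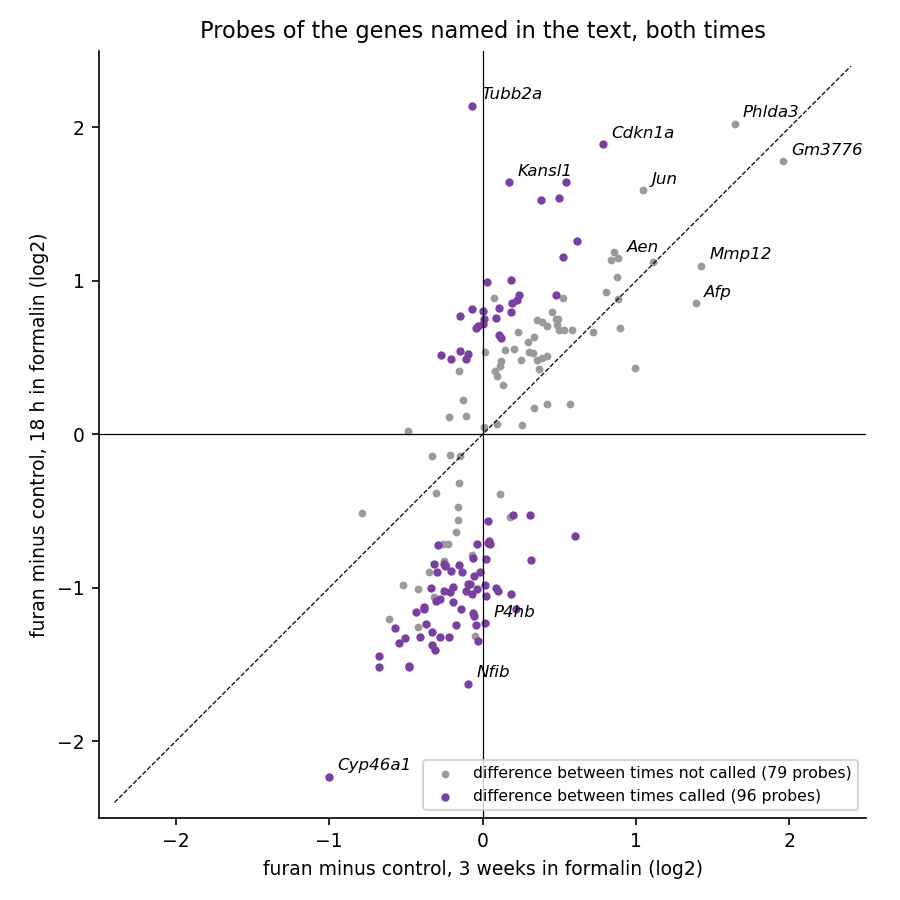
Furan minus control (log2) after 3 weeks in formalin (x axis) against that after 18 h (y axis) for the 175 tested probes of the genes named in the text, with the diagonal dashed. The 96 purple points have a called difference between the times, against 13.2% of all tested probes. Many of them, such as Tubb2a, lie near 0 at 3 weeks and far from 0 at 18 h. Most of these genes were chosen by their 18 h values, which favours larger differences at 18 h, so the count supports nothing by itself.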

How the data were processed

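The submitters' labels describe 2-colour Agilent SurePrint G3 mouse arrays in a reference design with randomized blocks and no dye swap. Per the file headers, the arrays were read with Agilent Feature Extraction 11.0.1.1 against build mm9, and the deposited median spot and background signals are raw intensity. The deposited log ratios of sample over reference are in log10 units, per the file headers. The authors' value table was taken to hold log2 ratios per probe, normalized in a way that no source used here gives. No source used here states its direction or log base. Both were read from the values of the 8 arrays compared: its columns rose with the log2 ratios computed here (r of 0.967 to 0.978), with slopes of 0.749 to 0.799, nearer to the slope of 1 for log2 than to that for log10. Its column medians for them lay between -0.00510 and 0.0247. Its 3-week control columns 2.1 and 2.2 correlated at 0.863 and 0.856 with the arrays of their label and at 0.969 and 0.975 with each other's, but both were averaged here.

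In R 4.3.3 with limma 3.58.1, background was corrected by normexp (offset 50), ratios were normalized by loess within arrays, flagged spots (187 to 308 of 62976 per array) were left out and replicate spots were averaged per probe. Tested probes were well above background in Cy5 on 3 or more arrays of a group. Of 55681 probes, 27235 matched a RefSeq symbol by accession. Probe sequences were not mapped. lmFit and eBayes were fitted with slide as a term over all tested probes, two-sided, adjusted by Benjamini-Hochberg at 0.05. The number of arrays limits the precision. The scripts were tested on simulated data, and figures were drawn in Python 3.11.15 with matplotlib 3.10.9.

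Named genes are up to 8 rises and 8 falls in which every one of 2 or more probes was called with groups apart, ranked by the weakest probe, the 5 widest opposite pairs, up to 3 members of each list by the same order and then by p, and 11 genes whatever their values. Fewer members were printed for some lists, and 1 gene picked in this way is not reported here. Srxn1, Txnrd1, Prdx1, Hspd1 and Hsph1 were added after their values were seen, and so were the promoters. The members, the lists and the rule were chosen with earlier results of these data known. Alternatives covered background, scaling, the authors' values, filters, slide, variance model, array weights, pooling of groups, probes per gene, the replicate block and leaving out each sample.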

Additional observations from a re-analysis of the deposited data

Results flagged for a closer look

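In 12 of 350 groups of 4 samples examined at the probes of the named genes, 1 sample stood apart from the other 3. Chance flags about 1 in 20 groups. Among the controls, sample 2 stood at -0.62 for the brighter probe of Atf4 and at -0.31 for the second of Ganab, and sample 3 at 1.38 for Hba-a1, at -0.74 for the brightest of Rpl36 and at 0.68 for the brighter of Ugt3a2. Control 4 stood at 1.39 for C1qb, and control 6 at -0.21 for the brighter probe of Ndufb4 and at 0.72 for Pck1. Among the furan samples, 41 stood at -1.17 for the brightest probe of Ccnb1, 42 at -1.84 for Hbb-bs, 43 at -0.024 for the second of Atf4 and 44 at -0.18 for Glul.

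The furan difference at 18 h minus that at 3 weeks was called by limma for 3833 probes. Among the genes whose values at both times are given, it was 2.21 for Tubb2a, 1.47 for the brightest probe of Kansl1 and 1.11 for the brighter probe of Cdkn1a. It was -1.53 and -0.77 for probes 1 and 4 of Nfib, in order of brightness, -1.25 for P4hb, -1.23 for Cyp46a1, -0.88 for Ttr and -0.77 for the second probe of Cyp2e1. At Gapdh it was -1.09, -1.12, -0.74 and -0.77 for probes 1, 2, 5 and 6.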

How the results depend on the processing

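The genes chosen by the naming rule or added after their values were seen had 223 called probes. Of these, 210 stayed called when any 1 sample was left out and 13 did not. Median centring kept 181, turned 10 and lost 32. Slide 1 alone kept 188 and slide 2 alone 194, and the Agilent log ratio kept 209. Slide 1 alone gave 8249 called probes, 187 genes with all probes in 1 direction and 122 with opposite probes, and slide 2 alone 7174, 193 and 147. Without the filter on dim probes the latter counts were 313 and 310. Median centring gave 300 genes with opposite probes, and put 30 of 44 list medians above that of RefSeq probes, against 16 in the values reported. It turned the second probe of Atf4 to 0.015, the brightest of Cyp2e1 to 0.0196, Glul to 0.42, the second probe of Nfia to 0.11 and the third of Nfic to 0.40. The second probe of Cdkn1a, not called, gave -0.010 without background subtraction, -0.041 on slide 2, -0.011 with array weights and -0.041 to 0.073 with 1 sample left out. The third probe of Ccnb1 gave -0.32 on slide 1. With 1 sample left out, the second probes of H2-K1 and Rxra ranged from -0.027 to 0.10 and from -0.0040 to 0.15, and the difference in the share of probes above background from 5.43 to 7.36 points. The Agilent log ratio gave 2341 probes whose difference at 18 h was unlike that at 3 weeks. The cause of these changes was not tested, except that 1 slide alone holds fewer samples. Sample numbers shared by both times were used as a replicate block in 1 alternative, which gave 3996 such probes against 3833. Same-number deviations correlated at 0.02 to 0.18, and not every sample correlated best with its own number, so the numbers were not taken as pairs.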

Other observations

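Metabolic lists that the report leaves out held both rises and falls. The urea cycle had 7 of 10 probes lower and none higher, and phenylalanine and tyrosine breakdown 5 of 9 lower and none higher, against 25.0% of RefSeq probes called lower. In the same list methionine genes had 5 higher and 8 lower of 14 and other amino acids 8 higher and 7 lower of 30, and the whole list 13 higher and 27 lower of 63 with a median of -0.033. Fatty acid synthesis genes had 6 of 19 lower and none higher, with the desaturases Fads1 at -1.02 and Fads2 at -1.16, while sterol synthesis genes had 9 higher and 7 lower of 31. Slc25a20, which carries acylcarnitines into mitochondria, differed by -1.14, in a fatty acid oxidation list with 10 higher and 12 lower of 38. Pck1, the cytosolic gluconeogenic enzyme, differed by -1.20. Glul, glutamine synthetase of perivenous hepatocytes, differed by -0.14 and was not called (adjusted p = 0.204 by limma).

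Circadian clock genes had 6 probes lower and 1 higher of 18, with a median of -0.071. Their median over the probes was -0.16, -0.17 and -0.16 on control arrays 2, 3 and 4, inside the range of -0.26 to -0.067 on furan arrays, and 0.29 on control array 6. Without control 6 the list had 5 lower and 2 higher, with a median of 0.034. Bhlhe40 differed by -1.35, Nr1d1 by -0.71 and Per3 by -0.78. Per3 spread from 0.24 to 1.28 among controls. Of nuclear receptors and hepatocyte factors, 18 probes were higher and 12 lower of 59 (30.5% and 20.3%), near the shares of all RefSeq probes. Nr1i3, the receptor CAR, differed by -0.84 and -0.85, and Rxra by -1.32 at 1 probe and 0.06, not called, at the other. Acute phase proteins had 9 lower and 3 higher of 21, with Lrg1 at -1.29 and Orm1 at -0.92. The medians of the amino acid breakdown, sterol and fatty acid synthesis, fatty acid oxidation, circadian and acute phase lists changed side of the RefSeq median under at least 1 scaling.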
